A study of Mus musculus with 4 samples.

Results

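The *Egr*, *Nr4a* and *Nfat* genes encode transcription factors that read out antigen receptor signalling, and 9 of them were followed here by name: *Egr1*, *Egr2*, *Egr3*, *Nr4a1*, *Nr4a2*, *Nr4a3*, *Nfatc1*, *Nfatc2* and *Nfatc3*. Each had 1 probe set in the platform annotation, so no choice between probe sets was needed, and they are 9 of the 19938 genes with a probe set of their own. Their transcripts were compared between CTLs (cytotoxic T lymphocytes) and Tc17 cells (IL-17-producing CD8+ T cells) on 4 whole-transcript arrays, 2 biological replicates per group. Both groups came from wild-type C57BL/6 mice, aged 8 to 12 weeks per the study's methods, as naive CD8+ T cells of spleen and lymph nodes that were enriched by magnetic depletion of other cells and kept for 2 days in medium with IL-2 and an antibody that blocks IFN-γ. IL-6 and TGF-β were added for Tc17 cells. The methods give plate-bound anti-CD3 and soluble anti-CD28 as the stimulus of Tc17 cells, and the stimulus of the CTLs is not given in the sources used here. Whether the replicates stem from separate animals is not stated either, so the p-values reflect how far these particular samples differ, and that spread may be technical.

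Antigen receptor signalling raises calcium, which activates the phosphatase calcineurin. Calcineurin removes phosphates from NFAT proteins, which then enter the nucleus and, with AP-1 partners, switch on cytokine genes. EGR proteins are zinc finger factors and NR4A proteins are orphan nuclear receptors. Genes of both families are induced fast and briefly after receptor engagement, and EGR2, EGR3 and the NR4A factors are known for restraining T cell responses.

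On the 4 arrays the medians of all rows lay between 3.18 and 3.20 (log2), and all 9 genes lay above the array median on each array. Array values correlated at 0.993 within CTLs and 0.993 within Tc17 cells, and at 0.967 to 0.973 between the groups, across genes, which are not independent replicates. Genes of the T cell receptor complex and of CD8 were bright, with *Cd3g* at 9.62 and 9.64 in CTLs and 10.59 and 10.66 in Tc17 cells, and 4 of these 5 markers were higher in Tc17 cells. Of 21 markers of CD4, B, myeloid, NK, granulocyte and erythroid cells, 15 lay under the array median on all 4 arrays, and the sum of their log2 values was 58.96 to 60.71 in CTLs and 59.79 to 62.21 in Tc17 cells. Among them *Ly6g* was called higher in Tc17 cells, at 4.38 and 3.50, but its CTL values of 2.46 and 2.27 lay under the filter on low values (2.59), so no size is given. *Zbtb7b*, a factor of CD4 T cells, fell by 0.63 ± 0.14 (SE, limma adjusted p = 0.00923). *Cd4*, the other CD4 T cell marker, did not pass (-0.01 ± 0.17, limma adjusted p = 0.990). The B cell marker *Cd79b* lay above the array medians, at 4.53 to 5.14, and did not pass (0.43 ± 0.14, limma adjusted p = 0.0619). The part of these markers in the results was not tested.

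The promoters of the *Nr4a* genes are shown because 1 of these 3 genes differed between the groups and the others did not pass the test. The sequences are RefSeq's, on GRCm38.p6, from 250 bases before to 50 bases after the start site, 5′ to 3′ on the strand of the gene. Capitals mark TGACG, the short form of the CREB and ATF binding site, on either strand (CGTCA where it lies on the opposite one).
Nr4a3, chr4:48045055-48045354, + strand: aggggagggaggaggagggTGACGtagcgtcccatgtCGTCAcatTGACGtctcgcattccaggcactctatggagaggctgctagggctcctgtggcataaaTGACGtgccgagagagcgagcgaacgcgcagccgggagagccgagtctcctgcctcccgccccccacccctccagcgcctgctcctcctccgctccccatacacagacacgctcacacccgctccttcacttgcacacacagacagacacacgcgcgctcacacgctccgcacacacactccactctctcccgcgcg
Nr4a1, chr15:101266596-101266895, + strand: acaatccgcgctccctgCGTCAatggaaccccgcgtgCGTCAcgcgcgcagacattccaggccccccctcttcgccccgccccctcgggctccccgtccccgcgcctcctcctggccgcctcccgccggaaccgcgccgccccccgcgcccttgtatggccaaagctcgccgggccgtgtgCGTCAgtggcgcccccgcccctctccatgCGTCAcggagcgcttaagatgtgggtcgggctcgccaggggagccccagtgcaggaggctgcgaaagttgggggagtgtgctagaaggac
Nr4a2, chr2:57123954-57124253, - strand: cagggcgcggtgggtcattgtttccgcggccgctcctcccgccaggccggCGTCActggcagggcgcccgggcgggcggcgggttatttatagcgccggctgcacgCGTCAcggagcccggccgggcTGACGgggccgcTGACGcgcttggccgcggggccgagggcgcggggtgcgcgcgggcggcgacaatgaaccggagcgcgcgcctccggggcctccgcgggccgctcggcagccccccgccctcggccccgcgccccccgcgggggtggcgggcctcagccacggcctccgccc
Each of the 3 windows held 4 copies of TGACG. In the *Nr4a3* window the copies began at -231, -213, -205 and -147 from the start site. Of all 32851 promoter windows of this length, 20.8% held at least 1 copy and 0.231% held 4 or more. TGACG contains CG, and the *Nr4a3*, *Nr4a1* and *Nr4a2* windows were 64.7%, 72.3% and 81.7% G or C. The share among windows of like content was not computed. In all, 11 motifs were searched on both strands, and TGACG was singled out after the matches were seen. The others were the full site TGACGTCA (which contains TGACG and was in 1.79% of all windows), the NR4A site AAAGGTCA (1.51%), the NFAT core GGAAAA (23.4%), the EGR site GCGNGGGCG (5.55%), the AP-1 site TGANTCA (7.81%), the STAT site TTCNNNGAA (8.3%), the SMAD site GTCTAGAC (0.213%), TATAAA (13.6%), the CArG box of SRF (1.63%) and the MEF2 site (3.19%). The *Nr4a1* and *Nr4a2* windows each held 1 match to GCGNGGGCG, at -60 and -74 from the start site, and the *Nr4a2* window held 1 MEF2 site that overlapped its TATAAA. The *Nr4a3* window held no other match. Of the other members, *Egr2*, *Nfatc2* and *Nfatc3* had windows among those searched. A CArG box lay in 4 of the 5 windows of *Egr2*, which are alternative starts of 1 gene and partly overlap. Some of these *Egr2* windows also held 2 copies of TGACG, 1 window of *Nfatc3* held 1 copy, and the *Nfatc2* windows held none. A match describes letters in a window and not a bound site.

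*Nr4a3*, which encodes the orphan nuclear receptor NOR1, was 3.09-fold lower in Tc17 cells than in CTLs. Its transcript was at 8.09 and 7.87 (log2) on the CTL arrays and at 6.35 and 6.35 on the Tc17 arrays. Both Tc17 arrays lay below both CTL arrays, and the gap between the groups was far wider than that between replicates. The mean was 6.35 ± 0.002 in Tc17 cells against 7.98 ± 0.16 in CTLs (mean ± SD, n = 2 per group), a fall by 1.63 ± 0.13 on the log2 scale (SE of the fit, limma adjusted p = 1.74e-05). The 4 pairings of a Tc17 array with a CTL array gave differences from -1.74 to -1.52. In these bulk cultures, fewer cells with the transcript and less RNA per cell cannot be told apart. *Nr4a3* was the member past the threshold, 1 of 9 (11.1%), beside 15.7% of all 14953 genes tested, 8.22% higher and 7.44% lower in Tc17 cells. The share of members called lay near that of all genes, so the count says nothing about the set as a whole. With 2 arrays per group an exact permutation test cannot give a p under 0.333.

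**Figure D1:**
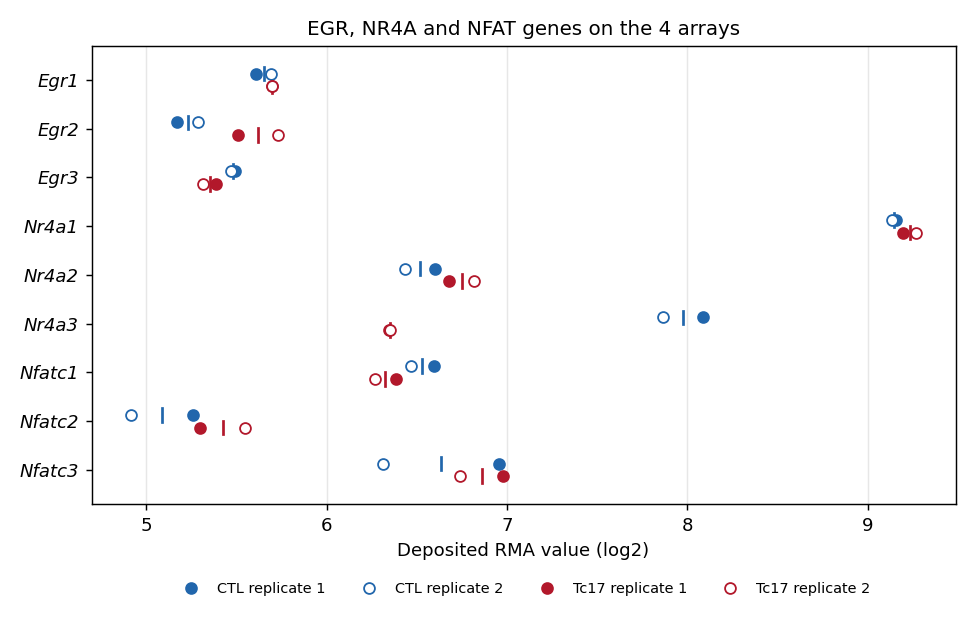
Level of each of the 9 genes on each array, as the RMA value on a log2 scale (horizontal axis). CTL arrays are blue and Tc17 arrays red, with replicate 1 as a filled and replicate 2 as an open circle, and a short vertical line gives the mean of each group. *Nr4a3* lies at 8.09 and 7.87 in CTLs and at 6.35 on both Tc17 arrays, while the groups of the other genes lie close together, and those of *Nfatc3* overlap.

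The other *Nr4a* genes did not pass the test. *Nr4a1*, which encodes NUR77, a receptor used as a reporter of antigen receptor signalling, was at 9.16 and 9.13 in CTLs and at 9.20 and 9.27 in Tc17 cells. The Tc17 arrays lay barely above the CTL arrays, with a difference of 0.09 ± 0.13 (limma adjusted p = 0.737) and a 95% interval from -0.19 to 0.36. *Nr4a2*, which encodes NURR1, was at 6.60 and 6.43 in CTLs and at 6.68 and 6.82 in Tc17 cells. It lay somewhat higher in Tc17 cells without passing the test (0.23 ± 0.13, limma adjusted p = 0.308, interval from -0.06 to 0.52). Both intervals lay wholly above that of *Nr4a3*, which ran from -1.92 to -1.33. Taken within each array, *Nr4a3* minus *Nr4a1* was -1.07 and -1.27 in CTLs and -2.85 and -2.92 in Tc17 cells, so that the log2 ratio changed by -1.71. The ratio of *Nr4a3* to *Nr4a2* went from 1.49 and 1.43 to -0.33 and -0.47, a change of -1.86. These ratios restate the fall of *Nr4a3* within each array and are a description with no test, and they do not give the relative amount of the transcripts, since probe sets differ in brightness.

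Among the *Egr* genes, *Egr2* lay closest to the threshold. It encodes a factor that limits T cell activation and takes part in anergy, and its transcript was at 5.17 and 5.29 in CTLs and at 5.51 and 5.73 in Tc17 cells. Both Tc17 arrays were above both CTL arrays, with a difference of 0.39 ± 0.14 that did not pass (limma adjusted p = 0.0785, interval from 0.09 to 0.69 before adjustment). Over 13 alternative settings the difference of *Egr2* ran from 0.28 to 0.50 and the adjusted p from 0.0595 to 0.389, so it did not pass in any of them. *Egr3*, a close relative of *Egr2* that is induced through NFAT, did not pass. Its values were 5.49 and 5.47 in CTLs and 5.39 and 5.32 in Tc17 cells (difference of -0.13 ± 0.13, limma adjusted p = 0.592). *Egr1*, an early target of the ERK and SRF pathway, was at 5.61 and 5.69 in CTLs and at 5.70 and 5.70 in Tc17 cells (0.05 ± 0.13, limma adjusted p = 0.864). The gap between the CTL arrays of *Egr1* was wider than the gap between the group means.

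The *Nfat* genes did not pass the test either. *Nfatc1* encodes NFAT2, whose short form T cells induce on activation, and it was at 6.59 and 6.47 in CTLs and at 6.38 and 6.27 in Tc17 cells. Its Tc17 arrays lay below its CTL arrays by a small margin (-0.20 ± 0.13, limma adjusted p = 0.369). *Nfatc2*, which encodes NFAT1, the form present in resting T cells, was at 5.26 and 4.91 in CTLs and at 5.30 and 5.55 in Tc17 cells (0.33 ± 0.15, limma adjusted p = 0.192). The CTL arrays of *Nfatc2* differed by about as much as the group means. *Nfatc3*, which encodes NFAT4, was at 6.96 and 6.31 in CTLs and at 6.98 and 6.74 in Tc17 cells. It was the member whose groups overlapped, and its difference of 0.23 ± 0.19 (limma adjusted p = 0.527) turned to -0.10 when CTL replicate 2 was left out and grew to 0.55 when CTL replicate 1 was.

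A p that misses the threshold does not show equal levels, so the intervals of the 8 genes that did not pass are of more use. All 8 limma intervals lay within 2-fold in either direction. Those of *Egr1*, *Egr3*, *Nr4a1*, *Nr4a2* and *Nfatc1* also lay within 1.5-fold, whereas those of *Egr2*, *Nfatc2* and *Nfatc3* reached beyond it (upper ends of 0.69, 0.68 and 0.65). Their width rests mostly on a spread taken from all genes (8.98 prior against 2 residual degrees of freedom). From its own arrays alone, *Nfatc3* had an SE of 0.35 (0.19 in limma) and *Nfatc2* of 0.21 (0.15 in limma). The SE of each other member was smaller than in limma. The replicates of a gene alone therefore do not set these bounds, least of all for *Nfatc2* and *Nfatc3*. RMA values compress differences of dim probe sets, and the intervals do not cover that. For 8 of the 9 genes all arrays of one group lay above those of the other, 5 with Tc17 above CTL and 3 below, which with 2 arrays per group was also the case for 54.4% of all genes tested. The median difference of the 9 genes was 0.09, beside 0.02 for all genes tested.

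**Figure D2:**
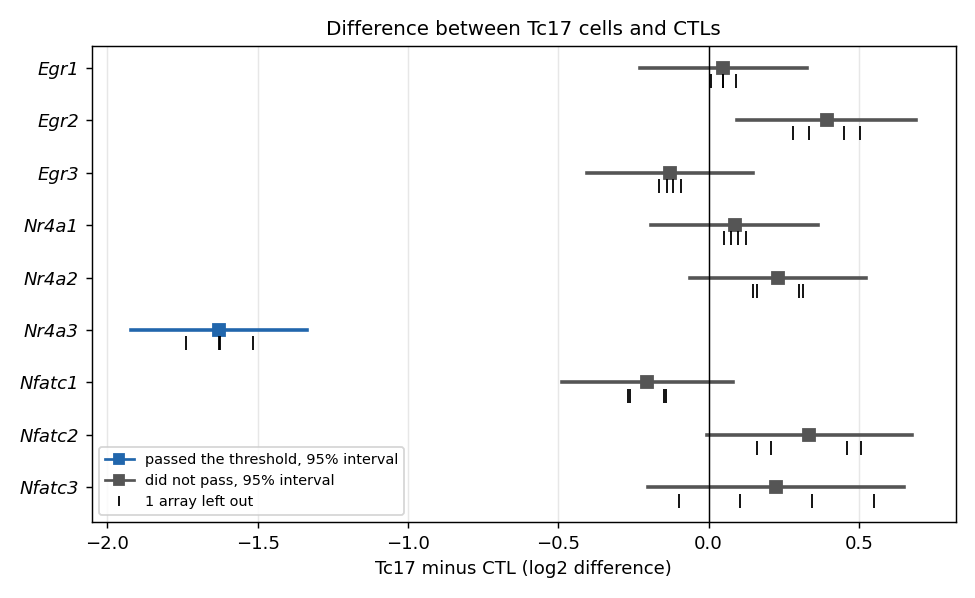
Log2 difference between Tc17 cells and CTLs (horizontal axis) of the 9 genes with its 95% interval from limma before adjustment, blue where the adjusted p was under 0.05 and grey where it was not. Black ticks are the differences with 1 array left out. The interval of *Nr4a3* runs from -1.92 to -1.33, and the others lie between -0.49 and 0.69.

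The genes whose profile over the 4 arrays was most like that of *Nr4a3* were *Eif2ak2*, *Prrg4* and *Slc7a5*. Likeness was the root mean square distance between profiles that were each centred on their own mean, and it was 0.03 for *Eif2ak2*, which encodes the double-stranded RNA-dependent kinase PKR, 0.05 for *Prrg4* and 0.07 for *Slc7a5*, a chain of the transporter of large neutral amino acids. Their log2 differences were -1.63, -1.56 and -1.54. The distances rest on 4 arrays in 2 groups, where genes with a like difference are alike in profile.

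Genes next to the members in their families gave 1 further change. *Nfat5*, which encodes the member of the NFAT family that responds to osmotic stress and does not depend on calcineurin, was at 6.77 and 6.38 in CTLs and at 5.64 and 5.34 in Tc17 cells. Both Tc17 arrays were lower, and *Nfat5* fell by 1.08 ± 0.16 (limma adjusted p = 0.00102), 2.12-fold. The call was lost when every row was tested (limma adjusted p = 0.0587). The calcineurin-dependent *Nfatc4* was dim, at 2.72 to 3.35 over the arrays, and overlapped between the groups. *Egr4* (0.21 ± 0.14) and the EGR corepressor genes *Nab1* (0.28 ± 0.13) and *Nab2* (-0.13 ± 0.13) did not pass (limma adjusted p = 0.387, 0.173 and 0.596). *Nfatc2ip*, whose product binds NFAT, differed by -0.00 ± 0.20 with unequal Tc17 arrays (5.63 and 4.90). In total 1 of these 6 genes was called, 16.7% against 15.7% of all genes. All 8 lists around the members were chosen with earlier results of these data known, so their shares are descriptions and no test.

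Upstream of NFAT, genes of calcium entry and calcineurin were higher in Tc17 cells where they changed. Of the 14 tested, 7 rose (beside 8.22% of all genes tested), none fell and 7 did not pass, with a median difference of 0.35 beside 0.02 for all genes tested. *Plcg1*, the phospholipase that makes the calcium-releasing messenger, rose most. It was at 6.40 and 6.15 in CTLs and at 7.26 and 7.20 in Tc17 cells, a 1.93-fold difference (0.95 ± 0.14, limma adjusted p = 7.63e-04). *Orai2*, a calcium channel subunit of the plasma membrane, rose from 4.48 and 4.75 to 5.56 and 5.50 (0.92 ± 0.14, limma adjusted p = 0.00101). The groups were well apart for both genes. The catalytic calcineurin subunit gene *Ppp3cc* rose from 7.05 and 7.10 to 7.85 and 7.81 (0.75 ± 0.13, limma adjusted p = 0.00196), while *Ppp3ca*, *Ppp3cb* and the regulatory subunit gene *Ppp3r1* overlapped between the groups and did not pass. The inositol trisphosphate receptor gene *Itpr3* (0.67 ± 0.14), the calcium sensor gene *Stim2* (0.57 ± 0.13), *Orai3* (0.50 ± 0.15) and the calmodulin gene *Calm2* (0.47 ± 0.13) were called too, with limma adjusted p between 0.00747 and 0.0411. *Orai1*, the main channel subunit of T cells, was at 5.43 and 5.33 in CTLs and at 5.25 and 5.04 in Tc17 cells and did not pass (-0.24 ± 0.13, limma adjusted p = 0.294). The count of 7 was lower with any 1 array left out. It was 3 of 14 when every row was tested, beside 855 of all 26668 rows. *Plcg1*, *Orai2* and *Ppp3cc* passed with each array left out in turn, whereas *Itpr3*, *Stim2*, *Orai3* and *Calm2* each missed the threshold in at least 1 such fit, with *Orai3* at 0.32 without Tc17 replicate 2. The CD3 and CD8 markers given above moved the same way, and their part in this was not tested.

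**Figure D3:**
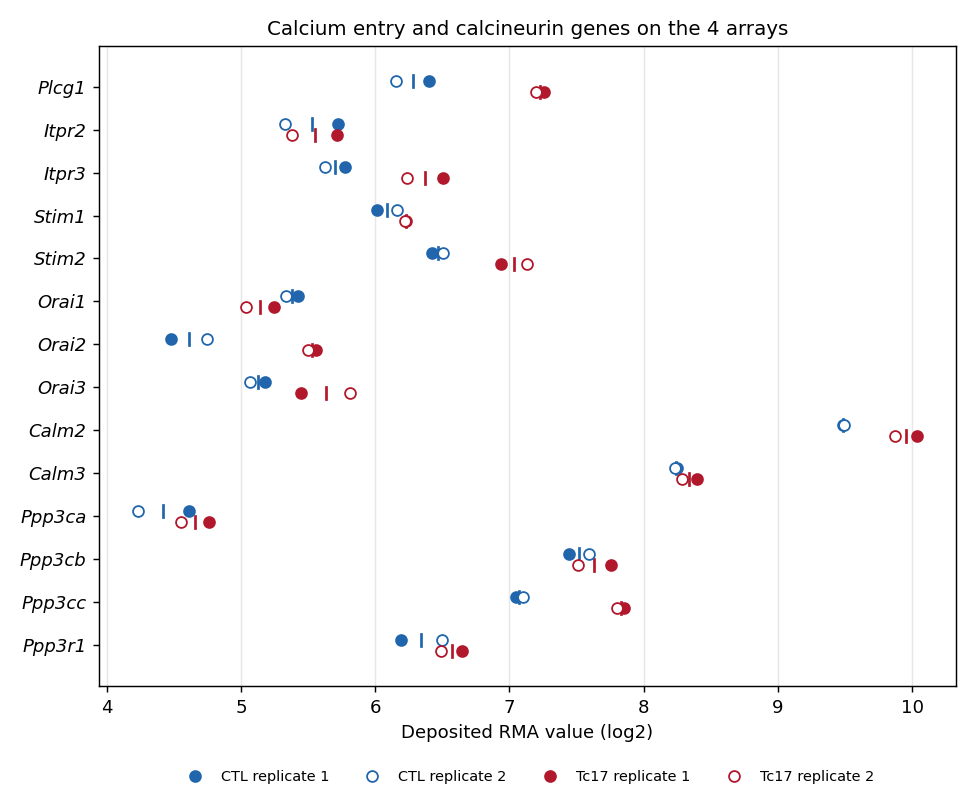
Level of 14 genes of calcium entry and calcineurin on each array, as the RMA value on a log2 scale (horizontal axis). CTL arrays are blue and Tc17 arrays red, with replicate 1 as a filled and replicate 2 as an open circle, and a short vertical line gives the mean of each group. *Plcg1*, *Orai2* and *Ppp3cc* lie apart between the groups (differences of 0.95, 0.92 and 0.75), *Orai1* lies slightly lower in Tc17 cells, and *Ppp3ca*, *Ppp3cb* and *Ppp3r1* overlap.

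Of the inhibitors of calcineurin and the kinases that export NFAT from the nucleus, 1 of 13 tested was called (7.7%, beside 15.7% of all genes tested), with a median of 0.02. It was the kinase gene *Dyrk1b*, which rose (0.47 ± 0.14, limma adjusted p = 0.0450). The call of *Dyrk1b* was lost without CTL replicate 1 (0.51), without CTL replicate 2 (0.43) and without Tc17 replicate 2 (0.32), as well as with no filter, an intensity trend, cyclic loess, median centring and the replicate block. Without Tc17 replicate 1, 3 genes of this list were called, with *Homer3* and *Dyrk2* in addition. *Rcan1*, a calcineurin inhibitor whose gene is itself a target of NFAT, was at 3.69 and 3.77 in CTLs and at 3.69 and 3.76 in Tc17 cells, so the groups overlapped (-0.01 ± 0.13, limma adjusted p = 0.981).

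Among factors that act on *Egr* and *Nr4a* promoters, 5 of 14 rose (35.7%, beside 8.22% of all genes tested) and none fell, with a median of 0.18. The ternary complex factor genes *Elk3* (0.97 ± 0.13, limma adjusted p = 5.67e-04), *Elk1* (0.68 ± 0.13, limma adjusted p = 0.00360) and *Elk4* (0.56 ± 0.13, limma adjusted p = 0.0139), whose products work with SRF, were all higher in Tc17 cells. *Srf* itself was at 5.91 and 6.08 in CTLs and at 5.92 and 5.95 in Tc17 cells and did not pass. *Hdac5* (0.79 ± 0.15, limma adjusted p = 0.00364) and *Hdac4* (0.69 ± 0.15, limma adjusted p = 0.0104), which encode deacetylases that repress MEF2 targets, rose as well. *Hdac7*, *Mef2d* and *Creb1* did not pass, with differences between 0.05 and 0.09. Without Tc17 replicate 2 the calls of *Elk4* (0.55) and *Hdac4* (0.56) were lost. When every row was tested 1 of the 14 was called, beside 855 of all 26668 rows.

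Genes that NFAT switches on in activated T cells differed widely and in both directions. Of 14 tested, 7 fell, 3 rose and 4 did not pass, so that 71.4% were called beside 15.7% of all genes tested, with a median of -0.50. The list was chosen with earlier results of these data known. The paper names *Ifng* a CTL gene and links *Il21* to IL-17-producing T cells, so this share is no test of NFAT-dependent genes. *Ifng* (by 4.25 ± 0.18, limma adjusted p = 1.07e-07) and *Csf2*, which encodes GM-CSF (by 3.52 ± 0.22, limma adjusted p = 2.16e-06), fell most, while the largest increases were those of *Il21* and of *Pdcd1*, the gene of the inhibitory receptor PD-1 (1.32 ± 0.13, limma adjusted p = 7.05e-05). *Il21* was at 5.36 and 5.39 in Tc17 cells, and its CTL values of 2.13 and 2.20 lay under the filter on low values, so no size is given. *Csf2* was at 7.06 and 6.39 in CTLs and at 2.93 and 3.47 in Tc17 cells, near the array medians, and values this low limit how well the size of its fall is known. *Fasl*, *Tnf*, *Il13*, *Il3* and *Il2* fell too, and *Ctla4* rose. *Il2* was at 5.05 and 3.79 in CTLs and at 3.28 and 3.38 in Tc17 cells, and its difference of -1.10 was -0.47 without CTL replicate 1, where the call was lost, and -1.73 without CTL replicate 2. The call of *Il2* was also lost without Tc17 replicate 1 and without Tc17 replicate 2. The difference of *Il3* was -1.85, and -0.98 without CTL replicate 1. *Il13* lost its call without CTL replicate 1 (-0.47) and without Tc17 replicate 1 (-0.61), and *Ctla4* without CTL replicate 2 (0.50) and without Tc17 replicate 1 (0.48). With an intensity trend in the fit, *Il2* (limma adjusted p = 0.0721) and *Il3* (limma adjusted p = 0.212) were not called.

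Genes linked to EGR2 and EGR3 gave 4 increases and 2 decreases among 18 tested (33.3% called, beside 15.7% of all genes tested), with a median of 0.16. With the filter at the median, 7 of these 18 were called, beside 2468 of all 9969 genes left. *Bcl6*, a repressor of effector fates (2.01 ± 0.13, limma adjusted p = 2.52e-06), and *Dgka*, a diacylglycerol kinase that dampens receptor signalling (1.45 ± 0.14, limma adjusted p = 4.99e-05), rose most, followed by the cell cycle inhibitor gene *Cdkn1b* (1.34 ± 0.13, limma adjusted p = 6.47e-05) and *Sema7a* (0.97 ± 0.18, limma adjusted p = 0.00417). Both CTL values of *Bcl6*, the higher at 3.06, lay under the array medians, against 4.96 and 5.12 in Tc17 cells, so the size of its increase is less certain than its SE. *Zbtb32*, a repressor of cytokine genes, fell by 1.38 ± 0.14 (limma adjusted p = 6.10e-05), and *Nrn1*, which encodes neuritin, fell by 1.16 ± 0.27 (limma adjusted p = 0.0127). The Tc17 arrays of *Nrn1* were far apart (6.69 and 7.71), and its difference was -0.65 without Tc17 replicate 1, while its call was lost without CTL replicate 2 (-0.95) and with an intensity trend in the fit (limma adjusted p = 0.103). *Cblb*, a ubiquitin ligase gene of anergy, did not pass (-0.23 ± 0.15, limma adjusted p = 0.372).

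Of 12 tested genes linked to the NR4A factors in exhausted and regulatory T cells, 4 rose (33.3%, beside 8.22% of all genes tested), none fell and 8 did not pass, while 5 of the 12 differences were positive and the median was -0.04. When every row was tested 1 of the 12 was called, beside 855 of all 26668 rows. With an intensity trend in the fit *Tnfrsf9* was called lower (-0.33, limma adjusted p = 0.0196). *Pdcd1*, given above, *Entpd1*, which encodes the ectonucleotidase CD39 (0.61 ± 0.13, limma adjusted p = 0.00674), *Foxp3* (0.60 ± 0.13, limma adjusted p = 0.00780) and *Ctla4* (0.59 ± 0.14, limma adjusted p = 0.0141) rose. *Entpd1* was under the array medians in CTLs (2.93 and 2.87) and at 3.52 and 3.49 in Tc17 cells. *Foxp3* was low, at 3.59 and 3.59 in CTLs and at 4.14 and 4.23 in Tc17 cells, and its call was lost without Tc17 replicate 2 (0.55). *Tox*, a factor of exhaustion, was at 4.97 and 4.92 in CTLs and at 4.90 and 4.94 in Tc17 cells and overlapped, as did *Tox2*. This list shares *Pdcd1*, *Ctla4* and *Tnfrsf9* with the NFAT list, and *Lag3* and *Tnfrsf9* with the EGR2 and EGR3 list. *Nab2* is in both the family list and the EGR2 and EGR3 list, and *Irf4* in both the NFAT and AP-1 lists. The counts of the lists are therefore not separate.

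Partners of NFAT in the AP-1 family and other genes of T cell activation went both ways. Of 30 tested, 6 rose, 5 fell and 19 did not pass (36.7% called, beside 15.7% of all genes tested), with a median of -0.11. With the filter at the median, 13 of these 30 were called, beside 2468 of all 9969 genes left. *Jun* (1.32 ± 0.19, limma adjusted p = 8.48e-04) and *Zfp36*, whose product destabilises cytokine mRNAs (1.23 ± 0.13, limma adjusted p = 9.29e-05), rose most, and *Btg2*, *Tnfaip3*, *Fosl2* and *Batf* rose as well. *Atf3*, a stress-induced factor gene (by 2.89 ± 0.13, limma adjusted p = 2.93e-07), and *Batf3* (by 1.25 ± 0.24, limma adjusted p = 0.00444) fell most, and *Dusp5*, *Cd69* and *Myc* fell as well. The CTL arrays of *Batf3* were unequal (7.43 and 6.49), and its difference was -0.79 without CTL replicate 1. *Fosl2*, *Batf* and *Tnfaip3* each lost their call with at least 1 of the arrays left out. The early genes *Fos*, *Fosb*, *Ier2* and *Dusp1*, which like *Egr1* and *Nr4a1* are induced soon after receptor engagement, did not pass (differences of -0.13, 0.05, -0.30 and -0.44). Of these, *Dusp1* was called lower with the filter at the median (limma adjusted p = 0.0480). *Irf4*, a factor induced in step with receptor signal strength, was at 7.95 and 7.82 in CTLs and at 7.73 and 7.77 in Tc17 cells and did not pass (-0.14 ± 0.13, limma adjusted p = 0.571).

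**Figure D4:**
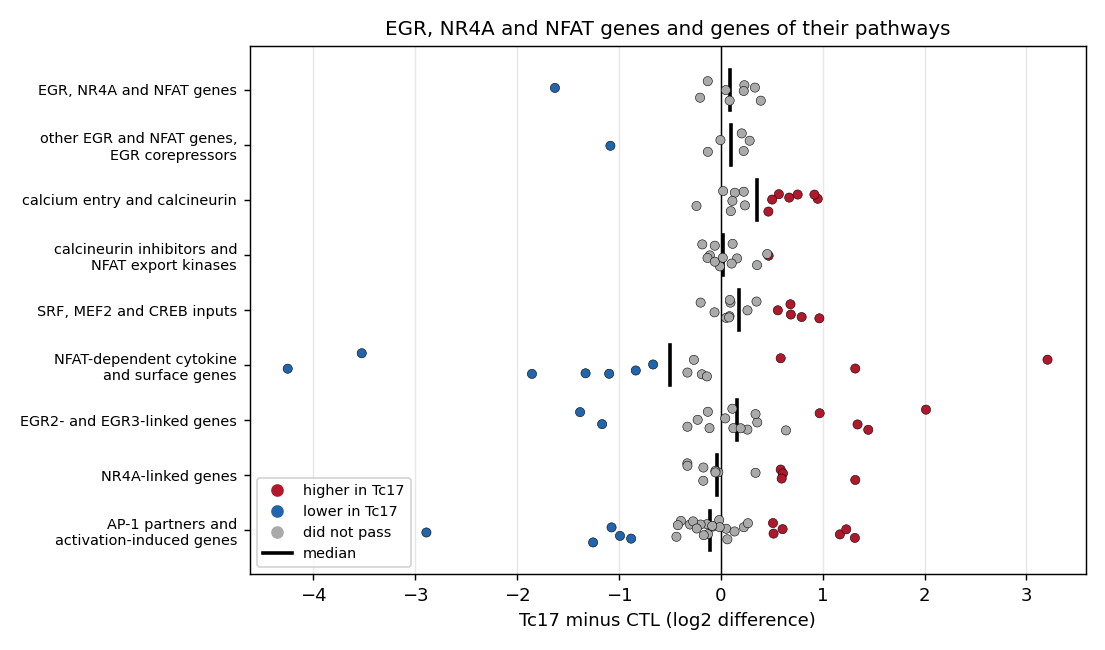
Log2 difference between Tc17 cells and CTLs (horizontal axis) of each tested gene of the 9 EGR, NR4A and NFAT genes and of 8 lists around them. Genes called higher in Tc17 cells (limma, adjusted p under 0.05) are red, genes called lower are blue and all others grey, with a black line at the median of each list. The median of calcium entry and calcineurin was 0.35 and that of NFAT-dependent genes -0.50, and the lowest point of the top row is *Nr4a3*.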

How the data were processed

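Per the labels, total RNA was copied into cDNA in 2 cycles, labeled with biotin and hybridised to 1 array per sample. The authors deposited RMA values (background correction, quantile normalization, probe set summary), whose range is that of log2 values, as which they were used. The sources used here give neither the log base nor the version of RMA. Quantile normalization hides a shift of all transcripts.

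Of 35557 rows, 21789 had 1 gene symbol. The brightest probe set of each of 19938 genes was kept, 4985 genes with a mean under the 25th percentile (2.59) were left out, and 14953 were fitted in limma 3.58.1 (R 4.3.3) with no block. Two-sided p-values were adjusted over all of them by Benjamini-Hochberg and called under 0.05. Differences are Tc17 minus CTL with the standard error of the fit. The fit was tested on simulated data. There, small differences were mostly missed, large ones were nearly all recovered, and the share of false calls lay slightly above the threshold. The simulation changed far fewer genes than were called here and drew its spread from the fit itself. It therefore does not give the recovery or the false calls of this comparison. The number of arrays limits the precision.

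The members and 8 further lists (119 of 123 genes were on the array under their own symbol) were chosen with earlier results of these data known. Named genes were all members, from each list the 2 largest increases and decreases past the threshold or else the smallest p, and the 3 profiles nearest to the member that changed most. Other names were chosen after their values were seen. Alternatives were other filters, moderation, scaling, probe set rules, a replicate block, an unmoderated t-test and each array left out. With an array left out, a lone array took its spread from the other group. Tables and plots used Python 3.11.15, pandas 2.3.3 and matplotlib 3.10.9.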

Additional observations from a re-analysis of the deposited data

How the results depend on the processing

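The fall of *Nr4a3* passed under 12 of 13 alternatives, with differences from -1.74 to -1.52. The methods give no test for these arrays and name an unpaired t-test for comparisons of groups in general. Such an unmoderated t-test with the same adjustment was the exception. There the *Nr4a3* difference of -1.63 had an adjusted p of 0.186 (0.00463 before adjustment). That test called 0 members, 0 genes of any list and 0 of 14953 genes, with 2498 genes at an unadjusted p under 0.05, while limma had 4049. The other 8 members passed under none of the alternatives, and *Nfatc3* changed sign without CTL replicate 2, its differences with 1 array left out running from -0.10 to 0.55. The count over all genes, 2342, was 855 when every row was tested and 1421 to 1924 with 1 array left out. Those 855 were of 26668 rows, a smaller share than in the main fit, beside which the list counts of that setting stand. Called there were 0 of 6 family genes, 3 of 14 calcium and calcineurin genes and 0 of 13 inhibitors and export kinases. The other lists had 1 of 14 input factors, 5 of 14 NFAT-dependent, 4 of 18 EGR2- and EGR3-linked and 1 of 12 NR4A-linked genes. Of AP-1 and activation genes, 5 of 30 were called. With the filter at the median, 2468 of 9969 genes were called, a larger share than over all 14953. There, 7 of 14 calcium and calcineurin genes, 5 of 14 input factors, 10 of 13 NFAT-dependent and 3 of 10 NR4A-linked genes were called. The part of brightness in the shares of the lists was not tested. With 1 array left out, calcium and calcineurin genes called ranged from 4 to 5, inhibitors and export kinases from 0 to 3 and input factors from 3 to 5. The call in the list of inhibitors and export kinases went to 0 with no filter, an intensity trend, cyclic loess, median centring and the replicate block.

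The replicate numbers were not shown to pair the samples, since the deviations of arrays with the same number correlated at 0.02 across genes. With the replicate number as a block 2322 genes were called, and 1 member. Signal over background limits what dim genes can show, among them *Nfatc4*, *Rcan1* and *Foxp3* and, in the group where they were low, *Il21*, *Ly6g*, *Bcl6*, *Entpd1*, *Csf2*, *Il3* and *Il13*.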
